A study of Danio rerio with 6 samples.

Results

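The cytosolic ribosomal proteins of the zebrafish were followed on 6 single-colour arrays, as 357 of the 14067 zebrafish probes and 70 of the 5002 gene symbols that the probes could be given. A probe belonged to the family when its RefSeq accession led to an rpl or rps symbol with a number, an rplp symbol or rpsa, or when its description began with the words ribosomal protein. Mitochondrial ribosomal proteins and the S6 kinases were left out. The large subunit was represented by 229 probes of 41 genes and the small subunit by 128 probes of 29 genes. The accession or description alone chose 344 probes, and 13 more were named through the clone name or a description shared with a named probe. Because no measured value entered the choice, the levels below are measurements and not part of the rule.

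Cytosolic ribosomes are built from a large and a small subunit, each an RNA scaffold covered by its own set of proteins. The small subunit holds the messenger RNA and reads the codons, and the large subunit joins the amino acids and releases the chain through an exit tunnel. Cells usually make the proteins of both subunits in matched amounts, through messenger RNAs that are among the most abundant and that share a start sequence read by the growth-controlled translation machinery.

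The study compared GFP-positive cells, sorted by flow cytometry from dissociated zebrafish embryos that carried a vascular reporter, with RNA of whole embryos. Tg(Fli1:EGFP) cells were collected at 18, 24 and 28 hours post fertilisation (hpf), and whole embryos at 18 and 24 hpf. The Fli1 and Flk promoters of these reporters are active in endothelial cells and their precursors, so a sort may hold more than 1 cell type. GFP-positive cells of Tg(Flk:GRCFP) embryos formed a further group, given as 18 hpf by the title and the series design and as 24 hpf by the sample description, and 18 hpf was used. No group was treated, and the labels give no mutant allele. All samples, the whole embryos included, share the labels' protocol of 2 rounds of RNA amplification and Cy3 labelling, and the source label names whole larvae on all 6. Each condition had 1 array, so no difference between single arrays has a replicate check.

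The arrays differed in brightness. The 99th percentile of the background-subtracted intensity was 3039, 10112 and 3357 for Fli1 cells of 18, 24 and 28 hpf, 9289 for Flk cells, and 26835 and 20536 for whole embryos of 18 and 24 hpf. A probe was called above background when it exceeded the 95th percentile of the Arabidopsis control spots, and 24.7%, 32.5%, 32.9%, 42.6%, 37.5% and 39.4% of the zebrafish probes did so on the arrays in that order. Between any pair of arrays the 173 control spots differed with an SD of 0.344 to 0.463 on the log2 scale. Of the erythroid markers, 6 of 10 listed genes were on the array, and their summed normalized intensity was 22470, 72020 and 98410 in Fli1 cells at 18, 24 and 28 hpf, 9589 in Flk cells, and 1919 and 14330 in whole embryos at 18 and 24 hpf. Of the endothelial markers 5 of 10 were present, summing to 4044, 3248 and 5200 in Fli1 cells, 3300 in Flk cells, and 2041 and 1775 in whole embryos. The fli1 probe was above background in Flk cells alone. Of the epidermal markers 7 of 8 were present, and they summed to 17230, 10360 and 17960 in Fli1 cells and 12960 in Flk cells, against 79900 and 112400 in whole embryos. Of the muscle markers 8 of 8 were present, and they summed to 4547, 4692 and 7848 in Fli1 cells and 4234 in Flk cells, against 4398 and 13020 in whole embryos. At 18 hpf the muscle sums of sorted cells were thus near that of whole embryos. Of these markers 3, 5 and 6 were above background in Fli1 cells, 5 in Flk cells, and 6 and 8 in whole embryos. The part of these other cells in the results was not tested.

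Ribosomal protein probes were among the brighter ones. On the Fli1 arrays 290, 317 and 285 of the 354 family probes without a quality flag were above background, against 316 on the Flk array and 317 and 314 on the whole-embryo arrays. A gene was represented by its brightest probe, and 68 of the 70 genes were above background on all 6 arrays. The exceptions were rps6 and rps29, with 4 arrays each. The scanner's ceiling was reached by 32 family probes on the whole-embryo array at 18 hpf and by 15 at 24 hpf, against 1, 7 and 1 on the Fli1 arrays and 2 on the Flk array, and 26 of the 70 genes were saturated on at least 1 array. Where the brighter spot was saturated or the dimmer one was not above background, a fold is given as "at least", using the lowest signal above background for the dim spot. Where the dimmer spot was saturated, it is given as "at most".

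The level of the whole family, and with it every comparison of sorted cells with whole embryos, depended on how the arrays were scaled. Values below are log2 intensities after quantile normalization, which gives all 6 arrays the same distribution, unless another scaling is named. Each gene's deviation from its own mean over the 6 arrays had a family median of -0.11, 0.19 and -0.69 in Fli1 cells at 18, 24 and 28 hpf, 0.08 in Flk cells, and 0.50 and 0.13 in whole embryos at 18 and 24 hpf. When each array was divided by its 75th percentile instead, the medians were -0.91, 0.61 and -1.55 in Fli1 cells, 0.05 in Flk cells, and 1.1 and 0.64 in whole embryos. On the authors' own scaled values they were -1.11, 0.60 and -1.59, then 0.02, then 1.38 and 0.69. The lowest levels were thus on the Fli1 arrays at 18 and 28 hpf under these 3 scalings, the arrays with the lowest 99th percentile, and the part of array brightness in this was not tested. The medians over all 6015 genes and unnamed probes analysed stayed between -0.10 and 0.07 under quantile normalization and between -0.17 and 0.07 on the authors' scaled values.

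**Figure D1:**
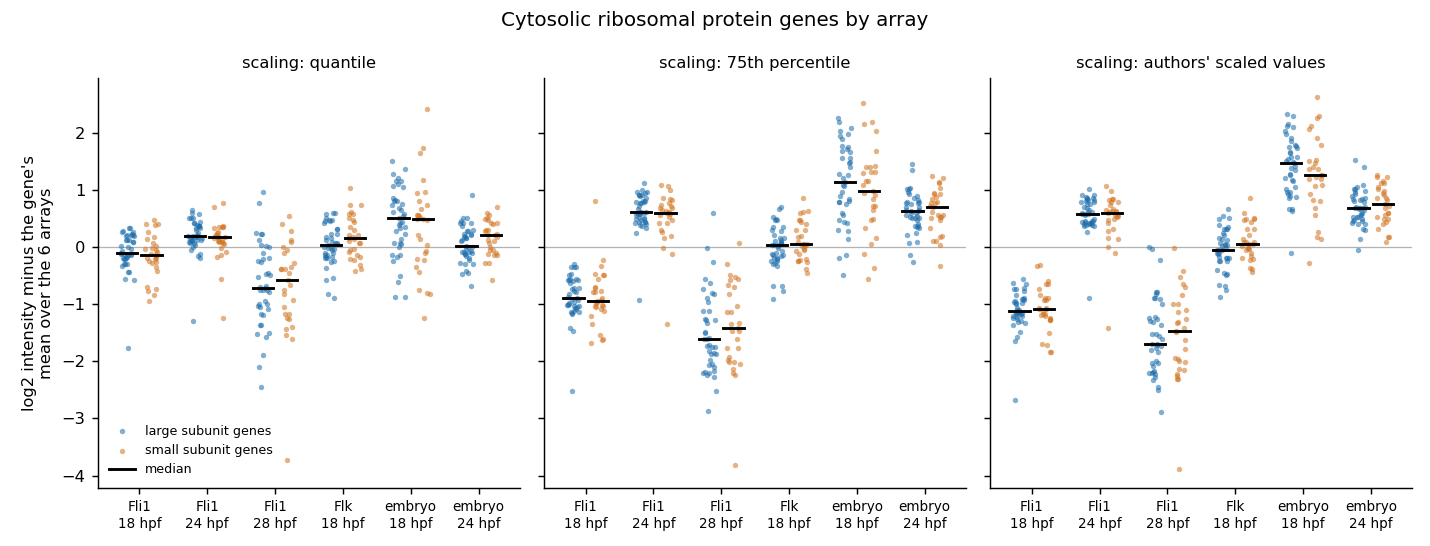
Each point is 1 of the 70 ribosomal protein genes, placed by its log2 intensity minus its own mean over the 6 arrays, for the 41 large and 29 small subunit genes, with the median as a bar and 1 panel per scaling. The large minus small subunit difference of medians is -0.20 to 0.04 with quantile normalization, and the spread between arrays is wider with the 75th percentile and the authors' scaling, where the Fli1 arrays at 18 and 28 hpf have medians from -0.91 to -1.59.

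Median deviations of the large subunit genes were -0.10, 0.19 and -0.71 in Fli1 cells at 18, 24 and 28 hpf, 0.05 in Flk cells, and 0.52 and 0.02 in whole embryos at 18 and 24 hpf. Those of the small subunit genes were -0.14, 0.17 and -0.57 in Fli1 cells, 0.17 in Flk cells, and 0.49 and 0.22 in whole embryos. The difference between the subunits, large minus small, therefore ran from -0.20 to 0.04 on the 6 arrays, while the SD among genes of 1 subunit on 1 array was 0.31 to 0.84. With the 75th percentile the difference ran from -0.20 to 0.15, and on the authors' scaled values from -0.23 to 0.22. No test of this difference was made.

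The highest level of a gene was most often in whole embryos at 18 hpf and its lowest in Fli1 cells at 28 hpf. Of the 70 genes, 35 were highest in whole embryos at 18 hpf, where 20.3% of all genes and probes had their highest value, and 44 were lowest in Fli1 cells at 28 hpf, where 24.2% of all had their lowest. The next largest numbers were 12 genes highest in Fli1 cells at 24 hpf (9.66% of all) and 8 lowest in whole embryos at 18 hpf (19.8% of all). On the authors' scaled values 57 genes were highest in whole embryos at 18 hpf and 52 were lowest in Fli1 cells at 28 hpf, beside 27.4% and 23.6% of all.

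The 1 comparison with more than 1 array on each side set the 4 sorted arrays against the 2 whole-embryo arrays in a limma model over all 6015 genes and probes. No ribosomal protein gene passed a Benjamini-Hochberg adjusted p of 0.05, against 0.0499% of all genes and probes called higher and 0.732% called lower in sorted cells. At an unadjusted p under 0.05, 2 members were higher and 6 lower, where 9.28% and 10.4% of all were. The lowest adjusted p by limma was 0.156, for rplp0, at -1.35 with an SE of 0.38. The mean was lower in sorted cells for 54 of the 70 genes and higher for 16, with a median difference of -0.35 (large subunit -0.38, small subunit -0.33) beside 0.09 over all genes and probes. In such bulk RNA, fewer cells of a type and less RNA per cell cannot be told apart, and the spread in this model mixes stage, reporter line and array.

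Groups that did not overlap were counted too. In 3 genes (rpl7a, rps3a and rps9) all 4 sorted arrays lay above both whole-embryo arrays, where 23.4% of all genes and probes did so. The order cannot be read for rps3a and rps9, whose spots were saturated on both whole-embryo arrays. With the 26 saturated genes left out, 1 lay above and 9 lay below. In 13 (rpl10, rpl19, rpl28, rpl36, rpl37, rpl5a, rplp0, rps10, rps14, rps25, rps26l, rps3 and rps4x) they lay below, where 15.2% of all did. This count depended on the probe. With the mean over the probes of a gene, 0 of 70 lay above and 5 below, beside 21.6% and 15.0% of all. On the authors' scaled values no member lay above and 39 lay below, beside 20.9% and 21.0% of all. After scaling by the 75th percentile 1 lay above and 30 below, beside 25.3% and 17.5% of all. With the 2 dimmest sorted arrays, Fli1 at 18 and 28 hpf, left out, 11 lay above and 17 below, beside 31.0% and 19.6% of all. Without the saturated genes, 4 of the remaining 44 lay above on these arrays and 10 below.

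At 18 hpf the ribosomal proteins were on balance lower in Fli1 cells than in whole embryos. The median log2 difference was -0.55 over the 70 genes, -0.49 for the large and -0.64 for the small subunit, beside 0.02 over all genes and probes. At 2-fold or more, 3 genes were higher (9.89% of all genes and probes were) and 20 were lower (13.0% of all), of which 11 were large and 9 small subunit genes. Averaging the probes of each gene in place of the brightest one left 8 genes lower, where 11.2% of all were, and a median of -0.36. Scaling by the 75th percentile gave a median of -2.08 with 0 genes higher (5.63% of all) and 56 lower (17.5% of all), and the authors' scaled values gave -2.49 with 0 higher (3.79% of all) and 66 lower (23.7% of all). The direction of the family held under these scalings and its size did not.

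Flk cells set against the same whole-embryo array gave a smaller median of -0.39, at -0.41 for the large and -0.23 for the small subunit, beside 0.05 over all. Here 5 genes were higher (6.87% of all) and 15 lower (6.70% of all) at 2-fold or more. Scaled by the 75th percentile, the median was -1.04 with 0 higher (7.08% of all) and 36 lower (11.8% of all), and with the authors' scaled values it was -1.31 with 0 higher (7.46% of all) and 47 lower (14.3% of all). Against whole embryos at 24 hpf, the stage in the sample description, the median was -0.02. Flk cells exceeded Fli1 cells at 18 hpf by a median of 0.14, with 5 genes higher and 0 lower, where 5.52% and 3.64% of all were. Scaling by the 75th percentile gave 0.94 here, with 29 higher and 0 lower (6.55% and 1.58% of all), and on the authors' scaled values it was 1.06, with 44 higher and 0 lower (9.89% and 1.35% of all). This direction depended on the stage label. The family's median deviation was 0.08 in Flk cells and 0.19 in Fli1 cells at 24 hpf. It was 0.05 and 0.61 with the 75th percentile, and 0.02 and 0.60 on the authors' scaled values.

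At 24 hpf Fli1 cells and whole embryos were close. Their median difference was 0.11, at 0.18 for the large and -0.02 for the small subunit, beside 0.13 over all, with 2 genes higher and 2 lower where 4.39% and 7.75% of all were. The other scalings gave medians of -0.01 and -0.13, with 0 higher and 3 lower in each. The background under the 75th percentile was 4.15% higher and 10.2% lower, and on the authors' scaled values it was 3.96% and 13.2%.

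**Figure D2:**
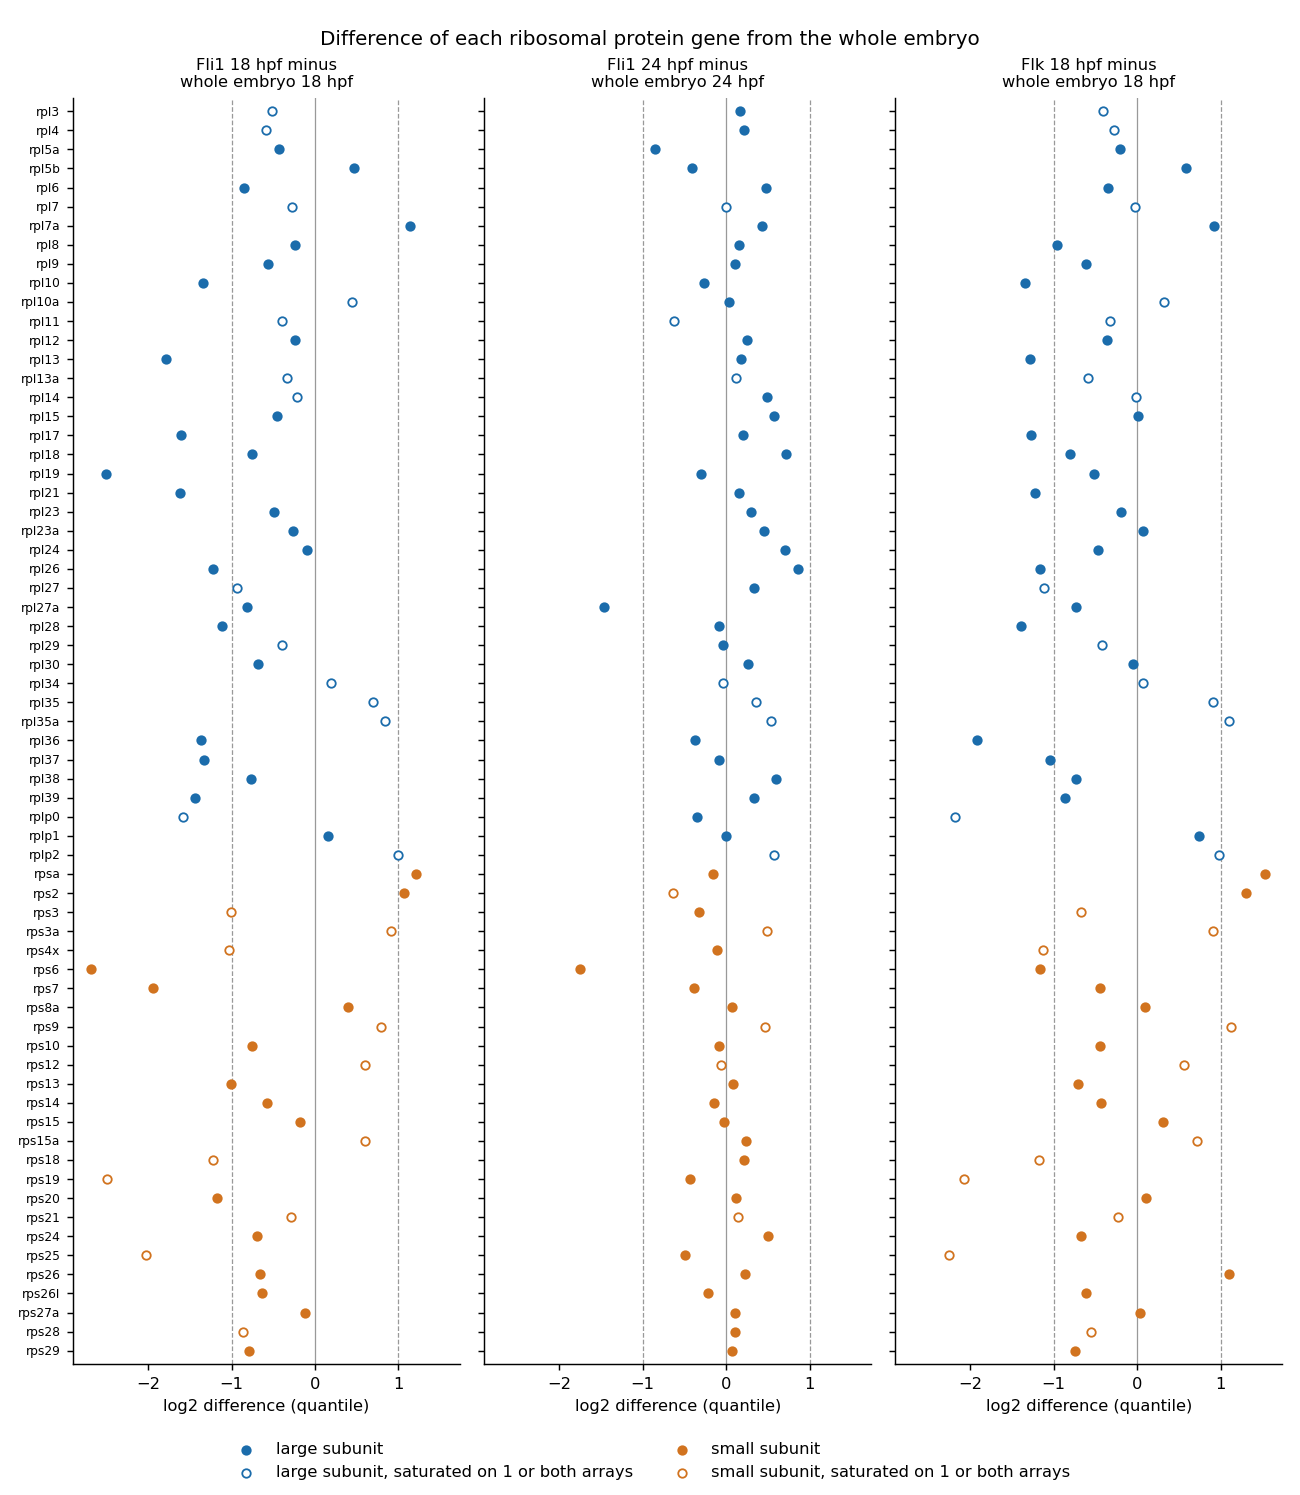
Each row is 1 of 66 of the 70 genes and each point its log2 difference after quantile normalization, sorted cells minus whole embryos of the stated stage, with open points where a spot was saturated on 1 or both arrays and dashed lines at 2-fold. At 18 hpf both panels spread from below -2 to above 1 with most points left of 0 in Fli1 cells, and at 24 hpf most genes lie within the dashed lines, with rpl27a (-1.46) and rps6, at least 2.37-fold lower since its Fli1 spot was not above background, to the left of them.

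The P stalk, with 3 genes here, is the arm of the large subunit that recruits elongation factors. Only with the brightest probes did rplp0 stand apart from its partners rplp1 and rplp2. The base of the stalk, rplp0, read 14.08, 14.53 and 13.59 in Fli1 cells at 18, 24 and 28 hpf, 13.47 in Flk cells, and 15.66 and 14.88 in whole embryos at 18 and 24 hpf. All sorted arrays lay below both whole embryos. At 18 hpf it was at least 3.0-fold lower in Fli1 cells and at least 4.56-fold lower in Flk cells than in whole embryos, where the spot was saturated. These sizes rested on that saturated probe, since the joined scan settings gave log2 differences of -0.64 and -1.28, and another probe, saturated on no array, gave -0.53 and 0.03. The acidic stalk protein rplp1 read 13.58, 13.66 and 12.87 in Fli1 cells, 14.16 in Flk cells, and 13.42 and 13.66 in whole embryos, so that the groups overlapped. Of its 6 usable probes 2 were higher and 4 lower in Fli1 cells at 18 hpf, with a median of -0.34. In Flk cells 4 were higher and 1 lower, with a median of 0.69. The other acidic protein, rplp2, was at most 2.0-fold higher in Fli1 cells at 18 hpf and at most 1.97-fold higher in Flk cells, with its spot saturated on the whole-embryo arrays. Its brightest unsaturated probe differed by -0.73 in Fli1 cells and 0.08 in Flk cells.

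The proteins that carry the 5S RNA into the large subunit, rpl5 and rpl11, are known together as the 5S particle. Zebrafish has rpl5 as rpl5a and rpl5b, and their brightest probes went apart at 18 hpf after quantile normalization. The first, rpl5a, read 12.62, 12.43 and 9.90 in Fli1 cells, 12.83 in Flk cells, and 13.05 and 13.27 in whole embryos, and rpl5b read 14.42, 13.90 and 13.36 in Fli1 cells, 14.53 in Flk cells, and 13.95 and 14.31 in whole embryos. All sorted arrays were below both whole embryos for rpl5a, while those of rpl5b overlapped. At 18 hpf rpl5a differed by -0.43 in Fli1 cells and -0.21 in Flk cells, and rpl5b by 0.47 and 0.58. These signs of rpl5b followed the scaling. The 75th percentile gave -1.37 in Fli1 cells and -0.45 in Flk cells, and the authors' scaled values gave -1.63 and -0.58. The 3 usable probes of rpl5a were mixed at 18 hpf. In Fli1 cells 1 was higher and 2 lower, with a median of -0.08, and in Flk cells 2 were higher and 1 lower, with a median of 0.06. The 4 usable probes of rpl5b were all higher than in whole embryos at 18 hpf after quantile normalization, with a median of 1.30 in Fli1 cells and 1.18 in Flk cells, and 4 of 4 were also higher in whole embryos at 24 hpf than at 18 hpf, by a median of 1.27. The brightest probe of rpl11, saturated on both whole-embryo arrays, was at least 1.32-fold lower in Fli1 cells at 18 hpf, and 11 of 12 usable rpl11 probes were lower there, with a median of -1.01. In Flk cells 12 of 12 were lower, with a median of -0.76. In Fli1 cells at 24 hpf 11 of 12 were lower, with a median of -0.39.

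Around the exit tunnel of the large subunit, 4 of 7 genes were lower by 2-fold or more in Fli1 cells at 18 hpf and none was higher, where 13.0% of all genes and probes were lower and 9.89% higher. Of all 41 large subunit genes 11 were lower, and 35 were with the 75th percentile. The counts are those of the brightest probes. The median over the 7 was -1.22 in Fli1 cells at 18 hpf and 0.33 at 24 hpf, and -0.52 in Flk cells. The gene with the largest difference was rpl19, which also reaches across to the small subunit. It read 11.29, 13.17 and 13.28 in Fli1 cells, 13.28 in Flk cells, and 13.80 and 13.47 in whole embryos, so that the Fli1 array at 18 hpf alone was far from the others. There it was 5.69-fold lower than in whole embryos, but of its 3 usable probes 1 was lower by 2-fold and 1 was higher, with a median of -0.82. The tunnel protein rpl17 read 10.57, 11.36 and 9.82 in Fli1 cells, 10.90 in Flk cells, and 12.17 and 11.16 in whole embryos. It was 3.03-fold lower in Fli1 cells and 2.4-fold lower in Flk cells at 18 hpf, and 5 of 5 usable probes were lower in each, with medians of -1.05 and -1.27. Whole embryos at 24 hpf were also lower than at 18 hpf with 5 of 5 rpl17 probes, by a median of -1.0.

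The other genes at the exit read nearer to the whole embryo than rpl19 and rpl17 in Fli1 cells at 18 hpf, though not all did in Flk cells. The subunit protein rpl26 was 2.32-fold lower in Fli1 cells and 2.25-fold lower in Flk cells at 18 hpf, and was 1.81-fold higher in Fli1 cells at 24 hpf. In yeast and mammals rpl39 lines the tunnel wall, and it was 2.71-fold lower in Fli1 cells at 18 hpf. The docking sites for factors that meet the new chain, rpl23a and rpl35, were measured with unequal certainty. In Fli1 cells at 18 hpf rpl23a differed by -0.26. The spot of rpl35 was saturated in whole embryos, so that it was at most 1.62-fold higher, and its difference was -0.80 from joined scan settings and -0.83 after scaling by the 75th percentile. The tunnel loop protein rpl4 was at least 1.51-fold lower with its brightest probe, saturated in whole embryos at 18 hpf, while 5 of its 7 probes were higher, with a median of 0.94.

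Where the messenger RNA enters the small subunit, the brightest probe of rps2 was higher and that of rps3 lower in sorted cells at 18 hpf. The entry-channel protein rps2 read 14.78, 15.01 and 15.48 in Fli1 cells, 15.01 in Flk cells, and 13.70 and 15.65 in whole embryos, with the last spot saturated. Its low value was that of whole embryos at 18 hpf. It was 2.11-fold higher in Fli1 cells and 2.47-fold higher in Flk cells at 18 hpf, where 6 of 6 probes were higher in each, with medians of 0.56 and 0.43. Between whole embryos, 24 hpf exceeded 18 hpf in 6 of 6 probes, by a median of 0.68 and at least 3.85-fold with the brightest. In Fli1 cells at 18 hpf the difference of rps2 was -0.67 with the 75th percentile and -0.89 on the authors' scaled values, so its direction followed the scaling. The brightest rps2 probe saturated on no array differed by 0.37 in Fli1 cells and 0.05 in Flk cells. The partner at the entry, rps3, was at least 2.01-fold lower in Fli1 cells with the saturated probe. It differed by -0.20 with the joined scan settings. Of its 5 usable probes 3 were higher and 2 lower in Fli1 cells at 18 hpf, with a median of 0.13. In Flk cells 4 were higher and 1 lower, with a median of 0.27, so the direction of rps3 did not hold across probes. Near the decoding site, rps15 differed by -0.18 in Fli1 cells and 0.31 in Flk cells at 18 hpf.

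The protein of the mRNA exit side that also serves cells as a laminin receptor, rpsa, had 13 usable probes, all of 1 direction at 18 hpf. It read 14.19, 13.89 and 13.02 in Fli1 cells, 14.51 in Flk cells, and 12.98 and 14.05 in whole embryos at 18 and 24 hpf. Whole embryos of 18 hpf and the 28 hpf Fli1 cells were the low ones, and the groups overlapped. At 18 hpf rpsa was 2.31-fold higher in Fli1 cells and 2.89-fold higher in Flk cells, and 13 of 13 usable probes were higher in each, with medians of 1.04 and 1.29. Both comparisons share the whole-embryo array at 18 hpf, and 12 of 13 probes were higher in whole embryos at 24 hpf than on that array, by a median of 0.99. In Fli1 cells at 24 hpf 6 probes were higher and 6 lower than in whole embryos, with a median of 0.00. With the 75th percentile the difference of rpsa in Fli1 cells at 18 hpf was -0.73 and on the authors' scaled values -0.78, while in Flk cells it stayed above 0, at 0.47 and 0.32.

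The other genes of the platform were mixed. Its rRNA-binding member rps14 read lower in all sorted arrays, at -0.58 in Fli1 cells and -0.43 in Flk cells at 18 hpf. The exit-channel protein rps26, with 1 probe, read 11.85, 13.28 and 11.14 in Fli1 cells, 13.61 in Flk cells, and 12.51 and 13.05 in whole embryos. It was highest in Flk cells and lowest in Fli1 cells at 28 hpf, and in Flk cells it was 2.15-fold higher than in whole embryos and 3.39-fold higher than in Fli1 cells at 18 hpf. The excess over whole embryos depended on the scaling. With the 75th percentile its deviations from its own mean were 0.865 in Flk cells and 0.733 in whole embryos at 18 hpf. On the authors' scaled values they were 0.867 and 0.81. Its paralogue rps26l differed by -0.64 in Fli1 cells and -0.61 in Flk cells. The platform protein rps3a was saturated on 5 of the 6 arrays, so that no fold is given. For rps28 the difference was at least 1.81-fold lower in Fli1 cells at 18 hpf, and -0.51 with the joined scan settings.

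The small subunit protein rps6, which the S6 kinases phosphorylate downstream of TOR, was lower in Fli1 and Flk cells at 18 hpf. It read 8.05, 7.76 and 8.34 in Fli1 cells, 9.59 in Flk cells, and 10.75 and 9.51 in whole embryos, with the Fli1 arrays at 18 and 24 hpf not above background. It was at least 4.58-fold lower in Fli1 cells at 18 hpf, at least 2.37-fold lower at 24 hpf and 2.23-fold lower in Flk cells than in stage-matched whole embryos. Of 7 usable probes 6 were lower in Fli1 cells at 18 hpf, with a median of -1.12 and a range from -2.69 to 1.78, and 6 of 7 were lower in Flk cells, with a median of -0.55. At 24 hpf 4 of 7 were lower, with a median of -0.21. The limma difference of sorted from whole-embryo arrays was -1.69 with an SE of 0.55, and its adjusted p was 0.192.

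Diamond-Blackfan anaemia is a human failure of red cell production caused by mutations in ribosomal protein genes. Of the 12 zebrafish genes of this list on the array, none was higher and 2 were lower by 2-fold or more in Fli1 cells at 18 hpf, none in either direction in Fli1 cells at 24 hpf, and 2 higher and 1 lower in Flk cells. Of all genes and probes 9.89% were higher and 13.0% lower in Fli1 cells at 18 hpf, and 6.87% and 6.70% in Flk cells. Their medians were -0.54 at 18 hpf and -0.16 at 24 hpf in Fli1 cells, and -0.27 in Flk cells, close to those of the whole family in Fli1 cells at 18 hpf. The gene most often mutated in patients, rps19, had 1 probe, which read 12.33, 12.60 and 13.45 in Fli1 cells, 12.74 in Flk cells, and 14.82 and 13.02 in whole embryos. The saturated spot of whole embryos at 18 hpf was the one that stood out, and rps19 was at least 5.6-fold lower in Fli1 cells and at least 4.22-fold lower in Flk cells, with -2.21 and -1.76 from the joined scan settings. The assembly protein rps7 was 3.84-fold lower in Fli1 cells and 1.36-fold lower in Flk cells at 18 hpf, and its 3 usable probes in Fli1 cells had a median of -0.70. In rps24 the probes were of 1 direction, with 7 of 7 lower in Fli1 cells at 18 hpf (median -0.69) and in Flk cells (median -0.71), and 7 of 7 higher in Fli1 cells at 24 hpf (median 0.39). The remaining genes of the list were within 2-fold in Fli1 cells, with rpl15 at -0.45 and rps10 at -0.76 at 18 hpf. In Flk cells rpl35a was at most 2.15-fold higher, with its whole-embryo spot saturated and a difference of 0.18 from the joined scan settings.

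**Figure D3:**
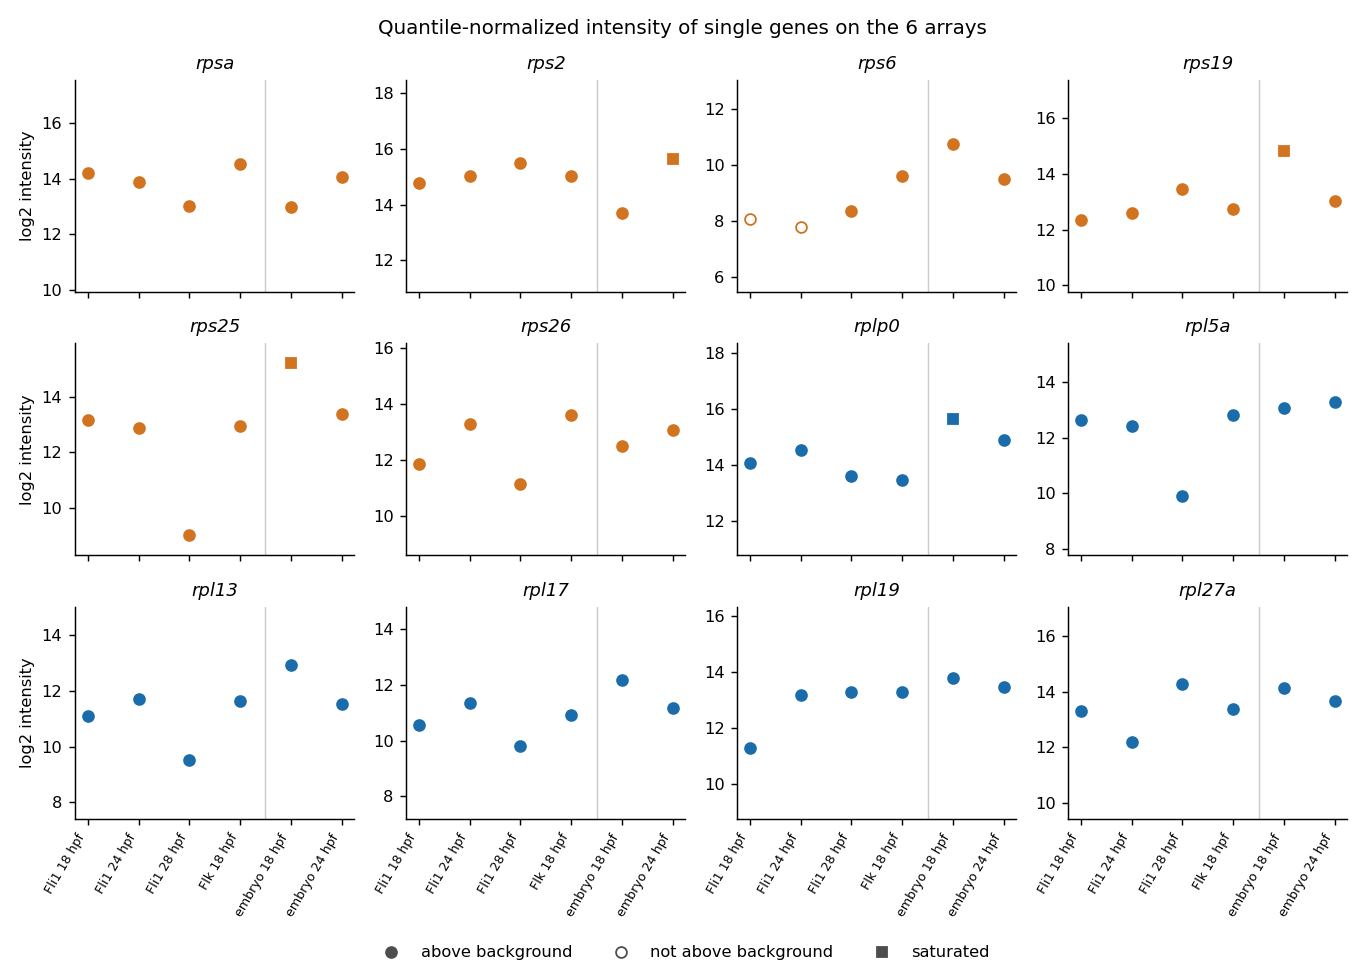
Quantile-normalized log2 intensity of 12 genes on the 6 arrays, each panel spanning the same log2 range, with sorted cells left of the grey line and whole embryos right of it; squares are saturated and open circles not above background. Whole embryos at 18 hpf hold the highest value of rps6, rps19, rps25, rplp0, rpl13, rpl17 and rpl19, and the low array of rps25 and rpl5a is that of Fli1 cells at 28 hpf.

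Other members 2-fold or more apart at 18 hpf were structural proteins of both subunits. In rps25, a protein of the small subunit head that some viral RNAs need to start translation, values were 13.17, 12.88 and 9.04 in Fli1 cells, 12.94 in Flk cells, and 15.19 and 13.38 in whole embryos. All sorted arrays were lower than both whole embryos, and the 28 hpf array was far below the rest. At 18 hpf rps25 was at least 4.06-fold lower in Fli1 cells and at least 4.78-fold lower in Flk cells, at -1.52 and -1.70 with the joined scan settings, while its second probe, not saturated, gave -0.16 and -0.43. The large subunit protein rpl13, with 1 probe, was 3.47-fold lower in Fli1 cells and 2.43-fold lower in Flk cells. For rpl21 the folds were 3.07 and 2.34 lower, while its second probe gave -0.35 and -0.51. The small protein rpl36 was 2.59-fold lower in Fli1 cells and 3.78-fold lower in Flk cells, with 3 of 3 probes lower in each, and rpl28 was 2.16-fold and 2.62-fold lower. Of the head protein rps18, the saturated probe was lower by at least 2.32-fold in Fli1 cells and at least 2.26-fold in Flk cells. Its unsaturated probe differed by -0.63 in Fli1 cells and 0.19 in Flk cells.

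Among genes that were higher, rpl7a and rps9 did not hold across probes or scalings. The brightest probe of rpl7a was 2.21-fold higher in Fli1 cells at 18 hpf, at 12.04, 11.78 and 12.75 in Fli1 cells, 11.82 in Flk cells, and 10.89 and 11.35 in whole embryos. All sorted arrays were above both whole embryos with this probe, whereas of its 13 usable probes 6 were higher and 7 lower at 18 hpf, with a median of -0.16. The entry-channel protein rps9 was at most 2.17-fold higher in Flk cells with its whole-embryo spot saturated, and differed by -0.54 with the joined scan settings. At 24 hpf the lower gene besides rps6 was rpl27a, at 13.30, 12.20 and 14.28 in Fli1 cells, 13.39 in Flk cells, and 14.12 and 13.65 in whole embryos. Its brightest probe was 2.74-fold lower in Fli1 cells at 24 hpf, and its 5 probes had a median of 0.17 with 3 higher and 2 lower.

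Of the listed paralogues, rpl7 and rps8a, whose partners were not analysed here, are given by their values. The large subunit protein rpl7 read 15.19 in Fli1 cells and 15.43 in Flk cells at 18 hpf, against 15.46 in whole embryos, and was saturated in Fli1 cells at 24 hpf and in whole embryos at both stages. The small subunit protein rps8a read 14.29, 14.29 and 14.02 in Fli1 cells, 13.99 in Flk cells, and 13.90 and 14.22 in whole embryos, so that the groups overlapped. In Fli1 cells at 18 hpf rps8a differed by 0.40, and by -1.52 with the 75th percentile and -1.75 on the authors' scaled values. The 27 genes outside the role groups and the largest differences, 18 large and 9 small subunit genes, ran from -1.34 to 0.91 in Fli1 cells and from -1.34 to 0.79 in Flk cells at 18 hpf. The members higher by 2-fold at 18 hpf were all among the genes named above, so that none could be left here. By 2-fold 5 were lower in Fli1 cells and 4 in Flk cells, where 13.0% and 6.70% of all genes and probes were. The choice took out the largest differences, so these ranges and counts depend on it. At 24 hpf they ran from -0.36 to 0.72 in Fli1 cells.

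Probes of the same gene often disagreed at 18 hpf and less so at 24 hpf. Over the 47 genes with at least 3 usable probes, the median SD among the probes of a gene was 0.68 in Fli1 cells and 0.57 in Flk cells against whole embryos at 18 hpf. Over 44 such genes it was 0.32 in Fli1 cells at 24 hpf. Taken over all usable probes rather than genes, the family median was -0.31 in Fli1 cells at 18 hpf (319 probes, 27 higher and 64 lower by 2-fold). It was -0.09 in Flk cells (317 probes, 31 higher and 37 lower) and 0.18 in Fli1 cells at 24 hpf (313 probes, 9 in each direction). The share of all probes past 2-fold was not counted, so these probe counts cannot be set against a background. Besides rpsa, rps2 and rpl5b, the genes whose probes were mostly higher in Fli1 cells at 18 hpf were rpl3 (9 of 10, median 0.53), rpl13a (6 of 7, median 0.95) and rpl10a (6 of 7, median 0.51). Mostly lower were rpl10 (7 of 8, median -1.01), rpl12 (7 of 8, median -0.54) and rpl15 (8 of 9, median -0.80). These 6 genes were chosen after their values were seen, and the directions are those after quantile normalization. The brightest probes of rpl3 and rpl13a, saturated in whole embryos at 18 hpf, were lower there, at -0.51 and -0.34. With the 75th percentile and on the authors' scaled values, the brightest probes of rpl3, rpl13a and rpl10a were all lower in Fli1 cells at 18 hpf. Probes of 1 gene share their transcript and are not replicates.

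**Figure D4:**
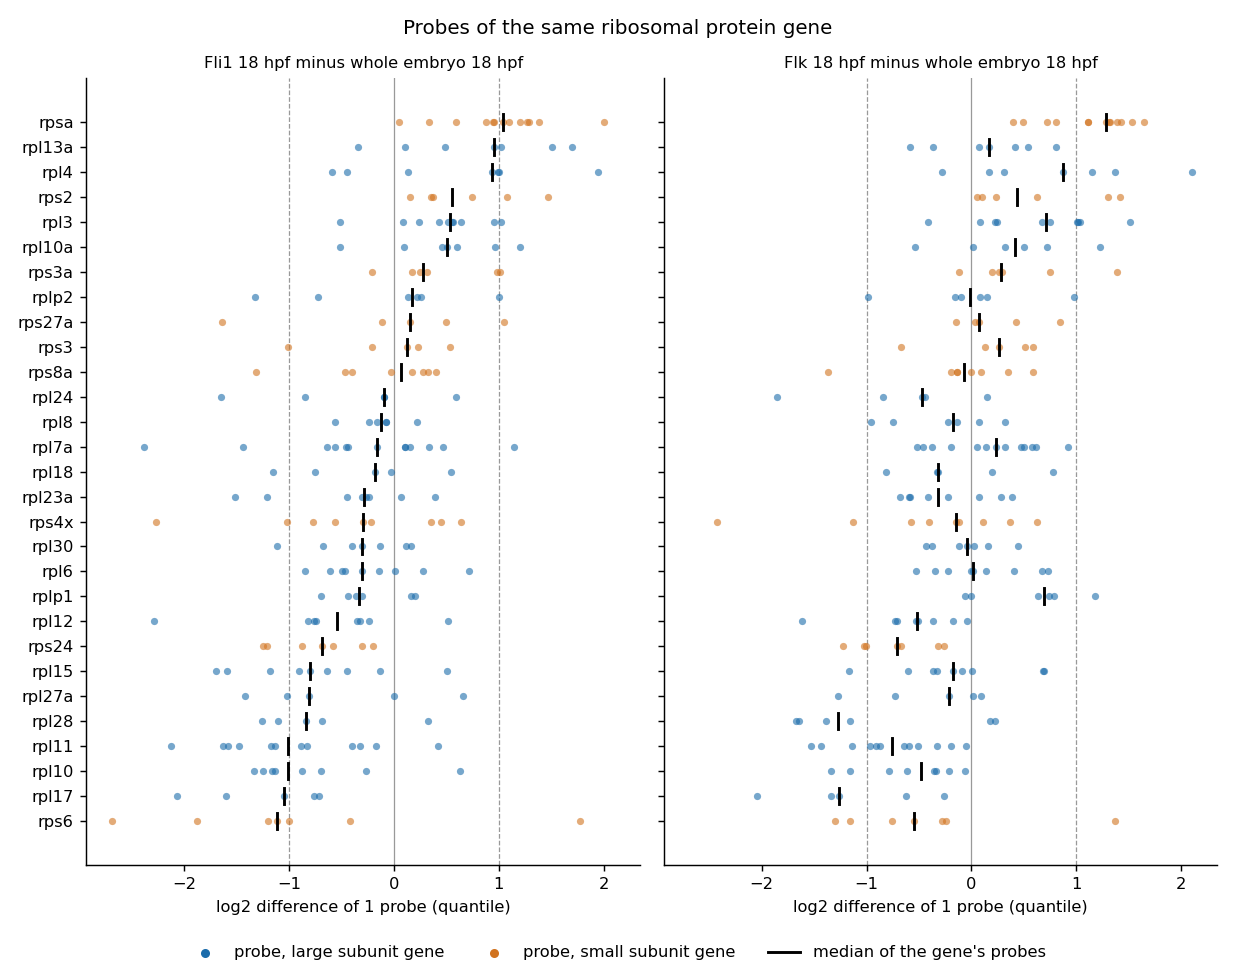
Each point is the log2 difference of 1 probe after quantile normalization, in Fli1 cells (left) and Flk cells (right) minus whole embryos at 18 hpf, for genes with 5 or more usable probes that are reported here, ordered by the median of their probes in Fli1 cells (bar). The 13 probes of rpsa are all right of 0 in both panels and the 5 of rpl17 all left of it, while probes of rpl7a lie on both sides.

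Within the Fli1 cells the family was higher at 24 hpf than at 18 hpf and lower at 28 hpf than at 24 hpf. The median differences were 0.29 and -0.85, beside 0.02 and 0.08 over all genes and probes. At 24 hpf against 18 hpf 3 genes were higher (4.97% of all) and 1 lower (3.76% of all), and at 28 hpf against 24 hpf 1 gene was higher (8.00% of all) and 30 were lower (9.96% of all), 18 of the large and 12 of the small subunit. With the 75th percentile the medians were 1.52, with 61 genes higher and 0 lower (7.44% and 1.71% of all), and -2.28, with 0 higher and 60 lower (3.16% and 11.8% of all). On the authors' scaled values they were 1.69, with 64 higher and 0 lower (9.53% and 1.76% of all), and -2.31, with 0 higher and 61 lower (3.84% and 12.2% of all). The order of the stages was the same under the 3 scalings, and the 24 hpf array was also the brightest of the 3.

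Single genes differed in how far they departed at 28 hpf. Against 24 hpf, rps25 was 14.3-fold lower with its brightest probe and its other probe differed by -0.69. The exit-channel gene rps26 was 4.43-fold lower. In rpl5a, which was 5.74-fold lower, 3 of 3 probes were lower with a median of -2.08, and in rpl4 7 of 7 were lower with a median of -1.63. In rps24 7 of 7 probes were lower, with a median of -1.24, and in rpsa 11 of 13, with a median of -1.29. The gene that was higher, rpl27a, was 4.22-fold higher, and 3 of its 5 probes were higher with a median of 0.06. The family's own exceptions included rps2, at 0.48, and rps19, at 0.86. No whole embryo of 28 hpf was measured.

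With the brightest probe of each gene, whole embryos at 24 hpf were lower than at 18 hpf by a median of -0.41. It was -0.52 for the large and -0.28 for the small subunit, beside -0.07 over all. In 11 of the 70 genes the spot was saturated on both arrays, so that their differences, which enter the median, cannot be read. The median was -0.44 over the 44 genes saturated on no array. With the mean over the probes of a gene it was -0.07, beside -0.06 over all. By 2-fold or more 3 genes were higher (5.52% of all) and 10 were lower (3.99% of all). The higher ones, all of the small subunit, included rps2 and rpsa (2.1-fold). Lower ones included rps19 (at least 3.46-fold), rps25 (at least 3.52-fold) and rpl26 (3.11-fold). Scaled by the 75th percentile, the median was -0.44, with 1 higher and 18 lower (7.28% and 6.16% of all), and on the authors' scaled values -0.69, with 0 higher and 21 lower (7.71% and 7.65% of all). Over 306 usable probes the quantile-normalized median was -0.13, at -0.16 for the large and 0.12 for the small subunit. Of these probes 27 were higher and 22 lower by 2-fold, with no share of all probes counted beside them. Several genes that set sorted cells apart at 18 hpf thus also set whole embryos at 18 hpf apart from those at 24 hpf.

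Other genes of the protein synthesis machinery were counted from fixed lists. Of 79 listed ribosome assembly genes 33 were analysed, and 4 were higher and 9 lower in Fli1 cells at 18 hpf, with a median of -0.53. The counts were 1 higher and 2 lower in Fli1 cells at 24 hpf and 5 higher and 3 lower in Flk cells. Examples in Fli1 cells at 18 hpf were rpf2, which with its partner brings the 5S RNA complex into the large subunit, at 14.9-fold higher, the large subunit assembly factor mak16, at least 4.15-fold lower, and gar1, a subunit of the pseudouridine-forming snoRNPs, 3.66-fold higher. For rpf2 the arrays read 12.19, 11.16 and 13.16 in Fli1 cells, 11.14 in Flk cells, and 8.30 and 9.99 in whole embryos, so that all sorted arrays exceeded both whole embryos. Of 38 listed elongation factors and genes regulated with them at translation 22 were analysed, with 4 higher and 3 lower in Fli1 cells at 18 hpf and a median of 0.38. Examples were eef2l2, at least 1.56-fold higher, hsp90ab1, a chaperone, 4.2-fold higher, and eef1b2, the exchange factor subunit of elongation factor 1, 3.79-fold lower. Mitochondrial ribosomal proteins had a median of -0.76 over 17 genes in Fli1 cells at 18 hpf, with 0 higher and 5 lower, and of -0.42 in Fli1 cells at 24 hpf and -0.38 in Flk cells. Among them mrpl17 was at least 2.79-fold lower, mrpl41 3.85-fold lower and mrpl38 at least 1.29-fold lower at 18 hpf. The shares of all genes and probes past 2-fold in these comparisons are those given above.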

How the data were processed

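Spot and local background intensity at scan settings 45, 55 and 65 were deposited by the authors, per the file headers, with a flag score per spot, an intensity joined over the settings, and the same divided by 1 number per array. The deposited linear scaled values equalled the scanner column within 4.3e-07, with medians from 0.801 to 0.922. The scanner, image software and flag codes are not given in the sources used here. Of 14784 spots, 544 were empty and 173 were Arabidopsis controls. Names came from accessions through RefSeq (GRCz12tu, names only): 8349 probes were named, and 5718 were not. A table column set of 18 per-sample values was not used. Intensity at setting 55 was corrected with normexp (offset 50) and quantile normalized in limma 3.58.1 under R 4.3.3. Probes flagged on any array (68) were left out, and features not above background on any array were dropped, leaving 6015. A gene was represented by its brightest probe. Alternatives changed the scaling, scan setting, background correction, filter, probe rule and arrays.

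The limma model for sorted against whole-embryo arrays, with Benjamini-Hochberg adjustment over all 6015, was tested on simulated data. There it found 12.1%, 83.6% and 98.5% of genes changed 2-fold, 4-fold and 8-fold and called 10 unchanged ones. The simulation drew independent noise from each gene's fitted variance and gave all sorted arrays the same change. Shifts of whole arrays and saturation were not simulated, so these rates hold for that setting only. Pairs of arrays were compared without a test, at 2-fold with the brighter spot above background and not both saturated. The named genes are the members of the role groups whatever their values, and for each stage-matched comparison the 3 large and 3 small subunit members with the largest difference in each direction past 2-fold. Other lists give up to 3 examples by size in Fli1 cells at 18 hpf. Some genes enter the counts and medians but are not reported here one by one, nor drawn by name. Members, lists and tests were chosen with earlier results of these data known. The number of arrays limits the precision. No sequences or genome coordinates are given, as the files name no build.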

Additional observations from a re-analysis of the deposited data

Results flagged for a closer look

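The family and the 4 genes set out here had opposite signs in Fli1 cells minus whole embryos at 24 hpf and at 18 hpf. There was 1 array in each place, and the difference between the stages was not tested. Many other genes changed sign too, among them rpl13, rpl17 and rpsa. Of the 70 genes 53 were below 0 at 18 hpf and 42 were above 0 at 24 hpf. The family median was 0.11 at 24 hpf, where that of all genes and probes was 0.13, and -0.55 at 18 hpf. It was below 0 at both stages with the 75th percentile (-0.01 and -2.08) and the authors' scaling (-0.13 and -2.49). In the large subunit, rpl26 differed by 0.86 at 24 hpf and -1.22 at 18 hpf, and rpl5b by -0.41 at 24 hpf and 0.47 at 18 hpf. The difference of rpl5b was below 0 at both stages with the 75th percentile (-0.61 and -1.37) and the authors' scaling (-0.68 and -1.63). In the small subunit, rps2 was lower at 24 hpf and higher at 18 hpf (-0.64 and 1.07), while rps24 was higher at 24 hpf and lower at 18 hpf (0.50 and -0.69). Each of these gene values is larger than the SD of the control spots between the same arrays. The 24 hpf values of rpl13 (0.18), rpl17 (0.20) and rpsa (-0.16) are not. The probe of rps2 was saturated in whole embryos at 24 hpf, and its difference had the other sign at both stages with the 75th percentile and with the authors' scaling.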

How the results depend on the processing

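No paired analysis was possible because each condition has 1 array, so that no replicate numbers pair samples, and stage was used as a block in its place. The count of members called by limma in sorted against whole-embryo arrays stayed 0 when any 1 array was left out (0 to 0), and was 3, all lower, with 4 stage-matched arrays and stage as a block, a fit with 1 residual degree of freedom that called 125 of all genes and probes higher and 226 lower. With the scaling, the family medians moved by more than the spread of control spots in the comparisons that follow. Those for Fli1 cells minus whole embryos at 24 hpf and for whole embryos at 24 minus 18 hpf moved by less. Scaling by the 75th percentile, then the authors' scaling, gave -2.08 and -2.49 for Fli1 cells minus whole embryos at 18 hpf, -1.04 and -1.31 for Flk cells minus whole embryos at 18 hpf, 0.94 and 1.06 for Flk minus Fli1 cells at 18 hpf, 1.52 and 1.69 for Fli1 cells at 24 minus 18 hpf, and -2.28 and -2.31 at 28 minus 24 hpf. For Flk cells the median was -0.02 against whole embryos at 24 hpf, and the large minus small subunit difference was -0.57 with saturated members left out. In Fli1 cells at 18 hpf, with the 75th percentile and the authors' scaled values, rpl7a was -0.29 and -0.56, rps2 -0.67 and -0.89, and rpsa -0.73 and -0.78, and the mean over probes gave -0.19 for rpl7a. In Flk cells rpl35a was -0.98 and rps9 -1.14 on the authors' scaled values, rps9 was -0.54 with joined scan settings, and with the brightest probe saturated on no array rplp0 was 0.03 and rps18 0.19. The cause was not tested. Of the other alternatives, 149 on counts and medians stayed within the spread, and of those on single genes 1036 did and 328 moved further. Signs also changed with the scaling in genes not listed here, as for rpl5b and rps8a in Fli1 cells at 18 hpf. The alternatives that took an unsaturated probe, left out probes named through a clone or shared description, or left out both dim Fli1 arrays were chosen after seeing the data. Members called 2-fold lower in Fli1 cells at 18 hpf numbered 20, and 8 of 70 with the mean over probes, where 11.2% of all genes and probes were lower, so that this count was near the background. The same setting gave 7 in place of 15 for Flk cells (5.86% of all) and 4 in place of 10 for whole embryos at 24 minus 18 hpf (3.16% of all). Saturation limits the brightest genes, 26 of 70, and background limits rps6 and rps29.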
